A study of Mus musculus with 6 samples.

Results

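The genes described here are the splicing regulators and RNA-binding families of the mouse genome that were chosen by symbol: the Srsf, Hnrnp, Rbfox, Mbnl, Celf, Esrp, Ptbp and Khdrbs families together with Qk, Rbpms, Rbpms2, Rbm24 and Rbm20. The rule found 56 genes among the 16279 genes that are listed for either cell type. Bulk RNA-seq was made from mouse embryonic stem cells (mESCs) and from cardiac precursor cell cultures (CPCCs), with 3 libraries of each. Both cell types are male F1 hybrids labelled C57BL/6 x CAST/EiJ, with C57BL/6J mothers by the study's methods, and the labels name no engineered allele. The mESCs were clones, each grown from a single cell, and were kept with inhibitors and LIF in medium with serum. The CPCCs were made from these clones through embryoid bodies in medium with ascorbic acid, were passaged with EGF and Fgf2, and were mixed cultures rather than sorted cells. The libraries are named here by the columns of the tables: S01 to S03 are mESC libraries, and S04 to S06 are CPCC libraries. By the study's methods, the replicates of a cell type came from clones of separate blastocysts, but no column is tied to a clone.

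Splicing removes introns from the primary transcript, and regulators decide which of several splice sites are used. SR proteins, encoded by the Srsf genes, bind exons through RNA recognition motifs and recruit the spliceosome through arginine-serine domains. The hnRNP proteins coat the transcript and often block splice sites. The Mbnl, Celf, Rbfox, Ptbp, Qk, Rbm24 and Rbm20 proteins recognise short sequence motifs and set splicing in particular tissues, among them heart, skeletal muscle and brain, and the Esrp proteins do so in epithelia. Many Srsf and Hnrnp genes limit their own level through transcripts that carry a premature stop codon and are destroyed by nonsense-mediated decay.

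An mESC library held 6442639 to 6907330 counts, and a CPCC library held 8468819 to 11436062. Levels are given in CPM, which are counts scaled to 1000000 in a library after TMM normalization. Changes are log2 fold changes of CPCCs over mESCs, tested by edgeR's quasi-likelihood method at an adjusted p under 0.05 (Benjamini-Hochberg, over 12471 genes). Their standard error (SE) is the size of the log2 fold change divided by the square root of the F statistic of that test. All 10 pluripotent cell markers fell, from a summed level of 4671 to 5064 CPM in mESCs to 157 to 363 CPM in CPCCs. The 10 cardiac progenitor markers summed to 7.26 to 11.9 CPM in mESCs compared with 52.1 to 115.5 CPM in CPCCs. Of these 10 markers, 4 were tested and Tbx20 rose, from 2.16 to 8.68 CPM in mESCs to 17.9 to 76.4 CPM in CPCCs (adjusted p = 0.00472). Mef2c had 9.94 to 19.3 CPM in CPCCs and is not listed for mESCs. Tbx5 is not listed for CPCCs, and Nkx2-5 had 1.59, 0 and 0.92 CPM in S04, S05 and S06. In CPCCs the mesenchymal markers summed to 16349 to 25892 CPM (1035 to 1268 CPM in mESCs), with 5 of 5 tested members higher. The neural markers summed to 1330 to 1593 CPM (468 to 497 CPM in mESCs), with 5 of 6 tested members higher. Fewer cells of a type and less RNA per cell cannot be told apart in bulk samples.

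Among the 51 splicing regulators that could be tested, 12 rose and 22 fell in CPCCs. The families moved apart: the 10 tested Srsf genes held 7 that fell and none that rose, and the 21 Hnrnp genes held 12 that fell and 1 that rose. In contrast, the other families held 11 that rose and 3 that fell among 20 tested genes. Each of the 3 muscleblind genes (Mbnl1, Mbnl2 and Mbnl3) rose, and both Rbpms genes fell. Over all 12471 genes, 61.4% passed the test, 31.7% as higher and 29.7% as lower, so that the 34 of 51 regulators that passed were close to the share of all genes. The median log2 fold change was -0.43 for the 51 regulators and 0.031 for all genes tested. With the added demand of a change of at least 2-fold, 10 regulators were higher and 9 lower. The same demand was met by 25.5% of all genes as higher and by 19.5% as lower. The levels of the cell types did not overlap for 37 of the 51 regulators, while 69.7% of all genes tested had no overlap. Without S04, the most deeply sequenced library, 39 of the 51 passed.

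**Figure D1:**
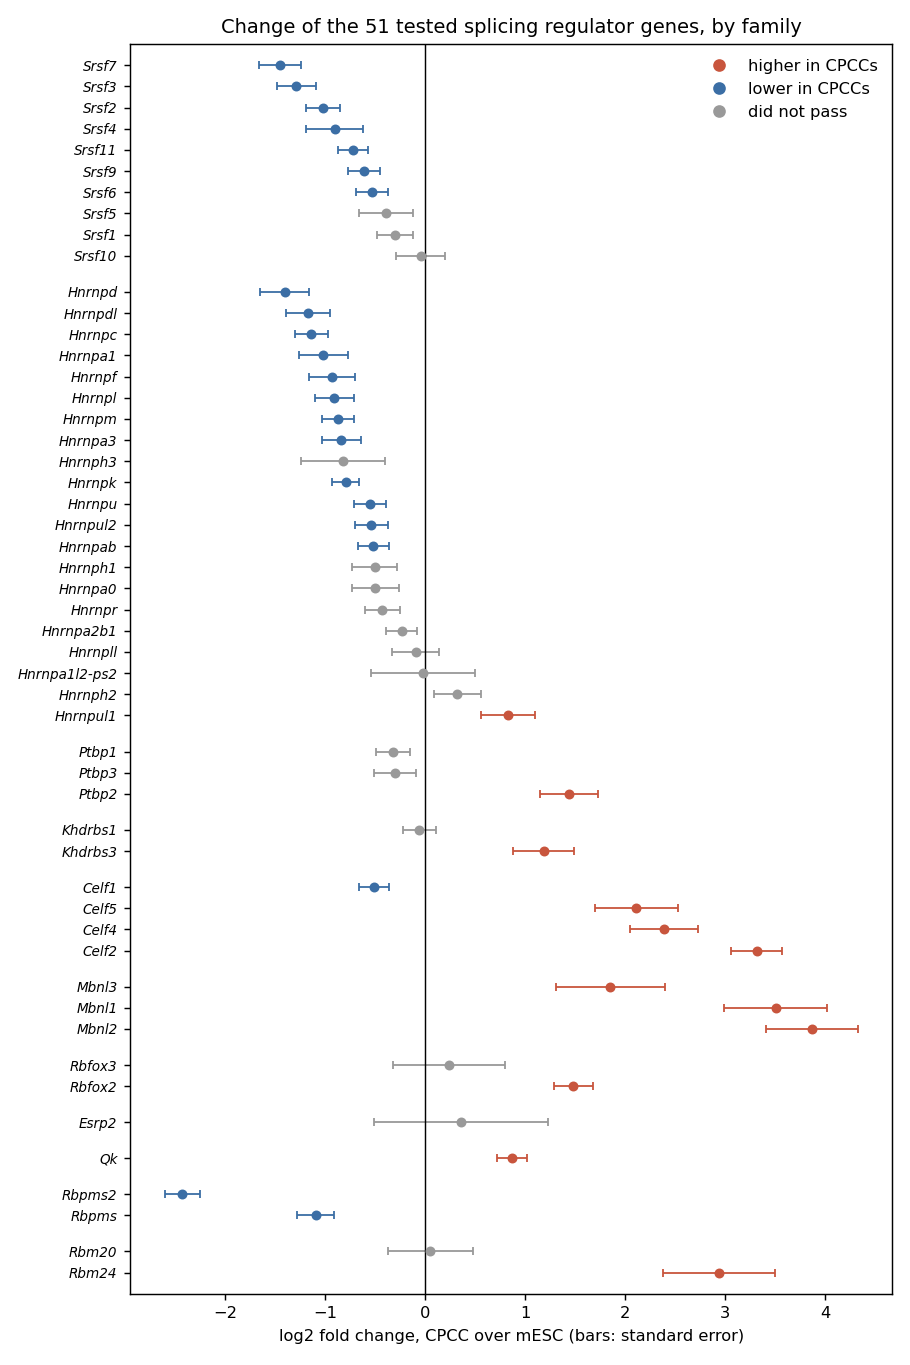
Points give the log2 fold change of CPCCs over mESCs for each of the 51 tested genes, and genes of a family stand together. Bars are 1 SE, derived from the F statistic of edgeR's quasi-likelihood test. Orange points passed the test as higher (12), blue points as lower (22) and grey points did not pass (17). The Srsf and Hnrnp genes lie mostly left of 0, and Mbnl2 and Mbnl1 lie furthest to the right.

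The start regions of the genes that moved the most are shown so that the rising and falling genes can be read side by side. A promoter window was given by RefSeq (GRCm38.p6) for 45 of the 56 genes. The 150 bases before the start are printed for the 3 largest rises and the 3 largest falls with a window, with 4 short motifs in capitals on either strand: the CCAAT box (letters CCAAT), the GC box (letters GGGCGG), the TATA box (letters TATAAA) and an E-box (letters CACGTG). The rising genes were Mbnl2 at chr14:120275519-120275668 (plus strand), Mbnl1 at chr3:60472680-60472829 (plus strand) and Celf2 at chr2:7396199-7396348 (minus strand). The falling genes were Rbpms2 at chr9:65630432-65630581 (plus strand), Srsf7 at chr17:80207306-80207455 (minus strand) and Hnrnpd at chr5:99978939-99979088 (minus strand).
Mbnl2: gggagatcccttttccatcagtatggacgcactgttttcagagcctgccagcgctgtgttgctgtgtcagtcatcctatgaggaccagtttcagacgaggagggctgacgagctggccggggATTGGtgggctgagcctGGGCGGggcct
Mbnl1: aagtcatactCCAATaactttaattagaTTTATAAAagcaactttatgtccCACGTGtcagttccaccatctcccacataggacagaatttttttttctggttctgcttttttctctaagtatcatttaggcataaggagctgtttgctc
Celf2: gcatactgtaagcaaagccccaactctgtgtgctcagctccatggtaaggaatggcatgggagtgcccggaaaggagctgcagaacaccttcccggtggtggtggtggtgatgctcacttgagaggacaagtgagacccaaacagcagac
Rbpms2: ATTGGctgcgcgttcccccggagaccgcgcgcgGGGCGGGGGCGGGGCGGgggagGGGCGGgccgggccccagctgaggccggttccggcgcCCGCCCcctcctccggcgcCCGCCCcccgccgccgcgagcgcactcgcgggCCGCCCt
Srsf7: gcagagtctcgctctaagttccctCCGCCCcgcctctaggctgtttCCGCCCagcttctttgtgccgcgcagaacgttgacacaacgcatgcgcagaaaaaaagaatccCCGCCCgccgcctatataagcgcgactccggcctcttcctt
Hnrnpd: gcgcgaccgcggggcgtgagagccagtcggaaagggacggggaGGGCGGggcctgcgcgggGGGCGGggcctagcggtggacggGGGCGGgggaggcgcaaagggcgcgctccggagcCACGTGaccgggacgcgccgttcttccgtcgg

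The windows differed in base composition. Over the 250 bases before the start, GC content was 84.8% for Rbpms2, 74.4% for Hnrnpd and 61.6% for Srsf7, and 57.2% for Mbnl2, 45.6% for Celf2 and 38.0% for Mbnl1. The median GC content was 68.8% for the 20 fallen genes with a window, 61.6% for the 9 risen genes and 60.4% for the 9742 tested genes with a window. The risen genes spanned 38.0% to 84.8%, so the ranges overlapped. GGGCGG on either strand was found in those 250 bases for 15 of 20 fallen genes (75%) and 5 of 9 risen genes (55.6%), against 61.8% of all tested genes. In fallen, risen and all tested genes, CCAAT was found in 45.0%, 33.3% and 37.3%, TATAAA in 15.0%, 22.2% and 5.76%, and CACGTG in 10%, 11.1% and 8.50%. With so few windows these shares describe the genes, and a match marks letters and not a bound site. For each gene the window whose start lay nearest to its listed 5′ end was used, and genes such as Mbnl1 and Celf2 have several starts. Bases just after the start matched a transcript of the gene for 39 of the 45 windows. Hnrnpa1, Hnrnpab and Rbm24 had no match, and the Hnrnpk start lay 1227 bases from its listed 5′ end.

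The 5 remaining genes of the 56 were not tested. Khdrbs2 (a STAR family protein related to Sam68) had 0.618, 0.147 and 2.49 CPM in mESCs versus 0, 0 and 1.15 CPM in CPCCs. Srsf12 had 1.24, 1.03 and 1.02 CPM in mESCs against 4.67, 0.606 and 2.64 CPM in CPCCs. Both were removed as too low in counts, and their cell types overlapped. Celf6, Esrp1 and Rbfox1 are listed for CPCCs and not for mESCs, so a fold can be given only as a bound against 3 counts per library. Esrp1, an epithelial splicing regulator, had 2.78, 6.55 and 17.2 CPM in S04, S05 and S06 and was at least 19.7-fold higher in CPCCs. S06 held the most, and without it the bound was 10.4-fold. Rbfox1, a UGCAUG-binding regulator of muscle and neuronal exons, had 10.04, 2.79 and 5.62 CPM and was at least 13.7-fold higher, with a bound of 9.38-fold without S04. Celf6 had 0, 0 and 1.60 CPM, which is at least 1.19-fold above the floor on average and comes from a single library, so that there is no bound without S06. Those bounds and floors cover counting error alone.

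SR proteins. The Srsf genes summed to 3955, 3942 and 4551 CPM in mESCs compared with 2081, 2137 and 2563 CPM in CPCCs, so every CPCC library stood below every mESC library. The 7 that fell were Srsf7, Srsf3, Srsf2, Srsf4, Srsf11, Srsf9 and Srsf6, by 0.53 to 1.46 on the log2 scale. Srsf7 encodes an SR protein with a zinc knuckle that also links splicing to mRNA export. It had 298, 262 and 409.5 CPM in mESCs versus 106, 111 and 136 CPM in CPCCs, with no overlap. Its log2 fold change was -1.46 (SE 0.21, adjusted p = 0.000326), the largest fall of the family. Srsf3 encodes the smallest SR protein, which also takes part in mRNA export and in 3′ end choice. It had 1079, 1118 and 1106 CPM in mESCs against 332, 467 and 549.9 CPM in CPCCs. Its mESC libraries were close together (SD 20.1 CPM, n = 3), while its CPCC libraries ranged more widely, with S04 the lowest. The log2 fold change of Srsf3 was -1.29 (SE 0.19, adjusted p = 0.000437).

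Srsf2 (SC35), an exon-binding SR protein of nuclear speckles, had the highest level per length of all members in both cell types. Per kilobase of annotated exon, it reached 434 CPM in mESCs compared with 213 CPM in CPCCs, followed in both by Srsf3 with 421 and 172 CPM per kilobase. In CPM, Srsf2 had 826, 795.5 and 984 in mESCs and 367, 409.5 and 506 in CPCCs. The log2 fold change was -1.02 (SE 0.17, adjusted p = 0.000857). Srsf11 fell by 0.72, Srsf9 by 0.62 and Srsf6 by 0.53 on the log2 scale, each with no overlap between the cell types. Srsf4 fell by 0.91 (SE 0.28, adjusted p = 0.0198), and S04 had the lowest level of the 3 CPCC libraries (55.1 CPM against 98.8 and 129 CPM). The calls of Srsf4 and Srsf6 did not survive every left-out library. Without S02 or S05, Srsf4 had adjusted p = 0.0724 and 0.0505, and without S03 or S05, Srsf6 had adjusted p = 0.0539 and 0.0691, all from edgeR's quasi-likelihood test.

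The 3 Srsf genes that missed the threshold were Srsf1, Srsf5 and Srsf10. Srsf1 (SF2/ASF), the SR protein that both constitutive and alternative splicing draw on, had 338, 304 and 383 CPM in mESCs versus 257, 242 and 331 CPM in CPCCs. Its log2 fold change was -0.30 (SE 0.18, adjusted p = 0.164), and the cell types overlapped. Srsf5 had a log2 fold change of -0.40 (SE 0.27, adjusted p = 0.226) with S04 at 103 CPM against 58.6 and 61.3 CPM in S05 and S06, and without S04 it passed at -0.70 (adjusted p = 0.0102). Srsf10, an SR protein that turns into a splicing repressor when dephosphorylated, had 64.0, 54.6 and 99.0 CPM in mESCs against 81.3, 67.8 and 61.5 CPM in CPCCs (log2 fold change -0.05, SE 0.24, adjusted p = 0.88).

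The hnRNP proteins. The Hnrnp genes summed to 6777, 6739 and 7839 CPM in mESCs compared with 4030.5, 4036 and 4711 CPM in CPCCs. Of the 21, 12 fell by 0.52 to 1.41 on the log2 scale, and the median log2 fold change was -0.56. Hnrnpd encodes AUF1, which binds AU-rich elements and controls mRNA decay as well as splicing. It had 265, 269 and 285 CPM in mESCs versus 66.5, 106 and 136 CPM in CPCCs, and fell the most (log2 fold change -1.41, SE 0.25, adjusted p = 0.00106). Hnrnpdl, its close relative on the same chromosome, had 385, 352 and 426 CPM in mESCs against 124, 169 and 222 CPM in CPCCs (log2 fold change -1.17, SE 0.22, adjusted p = 0.00152). For both genes S04 was lowest and S06 highest among the CPCC libraries.

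Hnrnpc, whose protein binds uridine tracts and keeps cryptic exons out of mRNA, fell from 771, 794 and 707 CPM to 286, 349 and 396 CPM (log2 fold change -1.14, SE 0.16, adjusted p = 0.000355). Hnrnpk encodes a poly(C)-binding protein and had the highest level per length of the family in both cell types, with 280.2 CPM per kilobase in mESCs compared with 161 CPM per kilobase in CPCCs. In CPM it had 1162, 1159.7 and 1129.5 in mESCs and 649, 626 and 713 in CPCCs, a narrow spread in each (SD 18.0 and 44.9, n = 3). The log2 fold change was -0.80 (SE 0.13, adjusted p = 0.000857). The remaining falls were those of Hnrnpa1 (-1.02), Hnrnpf (-0.94), Hnrnpl (-0.91), Hnrnpm (-0.88), Hnrnpa3 (-0.84), Hnrnpu (-0.56), Hnrnpul2 (-0.54) and Hnrnpab (-0.52). Among these, S03 stood above the other mESC libraries for Hnrnpf (714 CPM against 425 and 409 CPM) and for Hnrnpa1 (264 CPM against 173 and 147 CPM). Hnrnpab missed the threshold without S02, S03 or S05 (adjusted p = 0.055, 0.0541 and 0.0565), and Hnrnpul2 did so without S01 or S02 (adjusted p = 0.0552 and 0.0594).

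Hnrnpul1 was the Hnrnp gene that rose, with 15.1, 12.4 and 11.6 CPM in mESCs versus 17.1, 24.98 and 27.3 CPM in CPCCs. It encodes a scaffold-attachment-factor-like RNA-binding protein with a part in the DNA damage response. Its log2 fold change was 0.83 (SE 0.27, adjusted p = 0.0233), and the call was lost without any 1 of S02, S03, S05 and S06 (adjusted p = 0.0697, 0.0709, 0.0719 and 0.0739). The 8 Hnrnp genes that missed the threshold had log2 fold changes from -0.83 for Hnrnph3 (SE 0.42, adjusted p = 0.114) to 0.32 for Hnrnph2 (SE 0.23, adjusted p = 0.263). Hnrnpa2b1, a reader of RNA motifs that is a close paralog of Hnrnpa1, was among them with 176, 154 and 182 CPM in mESCs against 141, 140.3 and 153 CPM in CPCCs (log2 fold change -0.24, SE 0.15, adjusted p = 0.201). Among these genes Hnrnpr lay nearest to the threshold (log2 fold change -0.43, SE 0.17, adjusted p = 0.0536). Hnrnph1 was at -0.51 (adjusted p = 0.0787), Hnrnpa0 at -0.50 (adjusted p = 0.0923) and Hnrnpll at -0.10 (adjusted p = 0.737) on the log2 scale. Without S04, Hnrnpr, Hnrnph1 and Hnrnpa0 passed as lower (adjusted p = 0.026, 0.0149 and 0.0123). Hnrnpa1l2-ps2, a pseudogene of the Hnrnpa1 group, had 2.78 to 4.33 CPM in mESCs compared with 1.79 to 4.61 CPM in CPCCs (adjusted p = 0.972), and how reads were shared between it and its parent is uncertain.

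**Figure D2:**
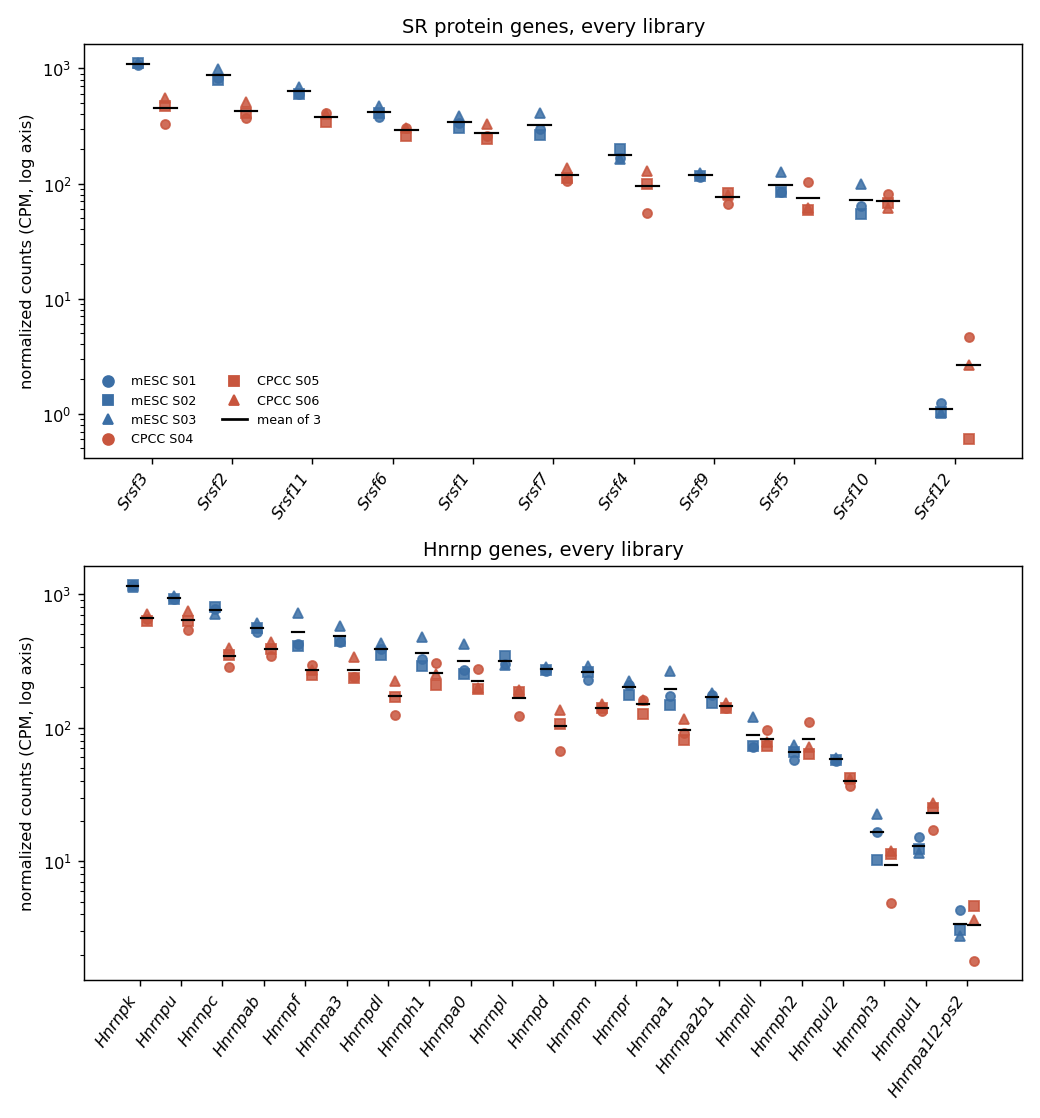
Each symbol is the level of a gene in 1 library in CPM on a log axis, with mESC libraries in blue, CPCC libraries in orange and a black line at the mean of 3. The upper panel holds the 11 Srsf genes and the lower panel the 21 Hnrnp genes, each ordered by their mESC mean. The orange symbols lie below the blue ones for most of the abundant genes, as for Srsf3, Srsf2 and Hnrnpk.

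The direction went with the level of the genes. Of the 32 tested regulators with a mean of at least 100 CPM over the 6 libraries, 20 fell (62.5%) and 4 rose. Of all 2441 genes at that level, 46.7% fell and 27.7% rose. Within the Srsf and Hnrnp families, 22 genes lay at or above this level, of which 17 fell (77.3%) and none rose. Among the 19 regulators under 100 CPM, 8 rose (42.1%) and 2 fell. Of all 10030 genes under this level, 32.7% rose and 25.5% fell. The part of the level in these directions was not tested.

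Muscleblind and CELF proteins. Mbnl proteins bind YGCY motifs and promote the splicing patterns of differentiated muscle and brain, and the Celf proteins bind UG-rich sequence and act against them on many exons. The Mbnl genes summed to 39.5, 32.4 and 61.6 CPM in mESCs versus 964, 385 and 301 CPM in CPCCs. Mbnl2 had 21.3, 15.6 and 31.7 CPM in mESCs against 566, 252 and 184 CPM in CPCCs. The log2 fold change was 3.87 (SE 0.46, adjusted p = 0.000116), the largest among the 51 regulators. Mbnl1 had 14.1, 15.0 and 24.6 CPM in mESCs compared with 379, 127 and 102 CPM in CPCCs (log2 fold change 3.50, SE 0.51, adjusted p = 0.000381). In both genes S04 stood well above S05 and S06, yet the lowest CPCC library exceeded the highest mESC library. Without S04 the log2 fold changes were 3.26 for Mbnl2 (adjusted p = 4.38e-07) and 2.69 for Mbnl1 (adjusted p = 1.32e-06). S04 was also the highest CPCC library for the striated muscle markers. They summed to 508 CPM in S04 against 150 and 177 CPM in S05 and S06, and 93.9 to 108 CPM in mESCs. Of the 10 markers, 6 are listed for mESCs and 5 were tested, with 1 higher and 1 lower. The part of these markers in the level of the Mbnl genes was not tested. Mbnl3, the X-linked member, had 4.17, 1.77 and 5.27 CPM in mESCs versus 19.6, 5.70 and 15.1 CPM in CPCCs (log2 fold change 1.85, SE 0.55, adjusted p = 0.0156). The gap between S03 and S05 was narrow for Mbnl3, and without S02 it missed the threshold (log2 fold change 1.52, adjusted p = 0.0529).

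Celf2 had 20.1, 17.5 and 31.6 CPM in mESCs against 229, 261 and 198 CPM in CPCCs, so its level rose 9.95-fold. Its log2 fold change was 3.31 (SE 0.26, adjusted p = 1.13e-05), and unlike the Mbnl genes it was not highest in S04. Celf4 rose from 12.05, 8.09 and 9.21 CPM to 76.9, 36.9 and 39.7 CPM (log2 fold change 2.39, SE 0.34, adjusted p = 0.000309). Celf5 rose from 3.86, 3.24 and 1.46 CPM to 13.6, 12.5 and 10.9 CPM (log2 fold change 2.11, SE 0.41, adjusted p = 0.002). Celf4 and Celf5 are known chiefly from neurons, and the neural markers were higher in CPCCs as given above; their part was not tested. Celf1, the broadly expressed member, fell from 405, 397 and 453 CPM to 325, 273 and 277.5 CPM (log2 fold change -0.52, SE 0.15, adjusted p = 0.0145), and missed the threshold without S05 (adjusted p = 0.0644). Per kilobase of exon, Celf1 stayed the highest of the family in both cell types, at 51.6 CPM in mESCs compared with 36.0 CPM in CPCCs, against 2.37 and 23.6 CPM for Celf2.

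Rbfox, Ptbp, Qk and Khdrbs. Rbfox2, a regulator of heart and mesenchymal exons that is also found outside neurons, had 31.4, 29.9 and 26.2 CPM in mESCs versus 94.1, 82.3 and 66.8 CPM in CPCCs. It rose by a log2 fold change of 1.48 (SE 0.19, adjusted p = 0.000211), with no overlap. Rbfox3, which encodes the neuronal antigen NeuN, stayed low at 1.32 to 2.21 CPM in mESCs against 1.59 to 2.52 CPM in CPCCs (log2 fold change 0.24, adjusted p = 0.73). Qk encodes Quaking, a STAR protein of muscle, glia and vessel cells, and had 233, 246 and 277 CPM in mESCs compared with 505, 426 and 445 CPM in CPCCs. The log2 fold change was 0.86 (SE 0.15, adjusted p = 0.00109).

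Ptbp1 represses exons through pyrimidine tracts in most cells, and Ptbp2 is its paralog of developing neurons and testis. Ptbp2 rose from 16.99, 14.6 and 27.6 CPM to 61.4, 40.4 and 58.3 CPM (log2 fold change 1.44, SE 0.29, adjusted p = 0.00226). Ptbp1 had 199.7, 180.0 and 169 CPM in mESCs versus 125.2, 149 and 165 CPM in CPCCs. Its groups did not overlap, but it did not pass the test (log2 fold change -0.32, SE 0.17, adjusted p = 0.123). Per kilobase, Ptbp1 remained above Ptbp2 in CPCCs, at 42.4 against 10.9 CPM. Ptbp3 missed the threshold as well (log2 fold change -0.30, SE 0.21, adjusted p = 0.237), with S04 at 179 CPM against 109.6 and 126 CPM, and passed without S04 (log2 fold change -0.52, adjusted p = 0.0112). Khdrbs3 (T-STAR or SLM2) rose from 10.4, 10 and 17.8 CPM to 36.0, 22.6 and 28.2 CPM (log2 fold change 1.18, SE 0.31, adjusted p = 0.00845). Khdrbs1, which encodes Sam68, was at 173.5 to 199 CPM in mESCs against 151 to 202 CPM in CPCCs (log2 fold change -0.06, SE 0.17, adjusted p = 0.774).

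Muscle, smooth muscle and epithelial regulators. Rbm24, a regulator of cardiac and skeletal muscle exons, had 0.618, 1.18 and 1.90 CPM in mESCs compared with 14.8, 7.88 and 5.96 CPM in CPCCs. It rose from a level near 1 CPM by a log2 fold change of 2.94 (SE 0.56, adjusted p = 0.00177). Rbm20, the regulator of titin splicing in the heart, had 6.18, 10 and 5.85 CPM in mESCs versus 11.0, 4.49 and 7.22 CPM in CPCCs, so the cell types overlapped (log2 fold change 0.05, SE 0.43, adjusted p = 0.927). Rbpms and Rbpms2 encode RNA-recognition proteins that are known from smooth muscle and the heart. Rbpms2 had 536, 551 and 477.5 CPM in mESCs against 88.2, 87.1 and 114.8 CPM in CPCCs. Its log2 fold change of -2.43 (SE 0.18, adjusted p = 7.84e-06) was the largest fall among the 51 regulators, and its level was 5.39-fold higher in mESCs. Rbpms had 237, 229.8 and 268 CPM in mESCs compared with 111.5, 93.0 and 139 CPM in CPCCs (log2 fold change -1.10, SE 0.19, adjusted p = 0.000891). Both fell while the mesenchymal list, which holds the smooth muscle genes Acta2 and Tagln, was higher in CPCCs.

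Esrp2 had 2.01, 2.50 and 0.878 CPM in mESCs versus 1.39, 0.364 and 5.16 CPM in CPCCs (log2 fold change 0.36, SE 0.87, adjusted p = 0.74). Esrp1 and Esrp2 were both highest in S06 among the CPCC libraries. The 10 epithelial markers summed to 1209 CPM in S06, against 719 and 672 CPM in S04 and S05 and 489.8 to 735 CPM in mESCs, with 5 higher and 1 lower of 10 tested. Their part in the level of the Esrp genes was not tested.

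**Figure D3:**
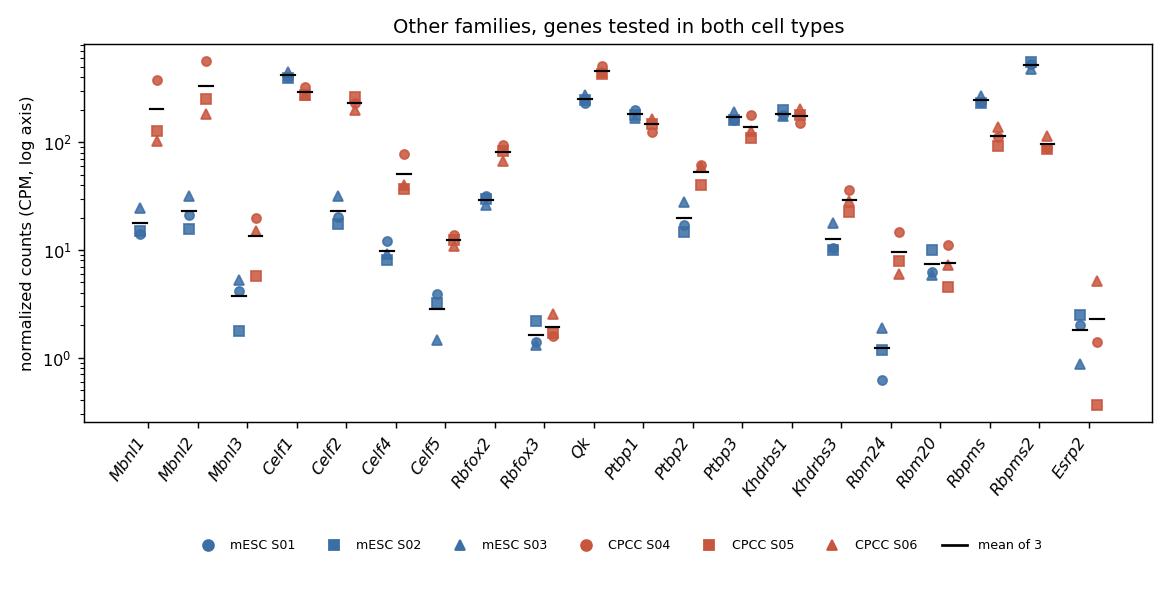
Levels of 20 genes of the smaller families in each library in CPM on a log axis, with mESC libraries in blue, CPCC libraries in orange and a black line at the mean of 3. The orange symbols of Mbnl1, Mbnl2 and Celf2 lie above all blue ones, those of Rbpms2 and Rbpms below them, and for Mbnl1 and Mbnl2 the circle of S04 stands above S05 and S06.

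The order of the libraries within a cell type was not even across these genes. S04 was the highest of the 3 CPCC libraries for 10 of the 12 regulators that rose, and S06 for 17 of the 22 that fell. In mESCs, S03 was highest for 16 of the 22 that fell and for 8 of the 12 that rose. Over all genes tested, S04, S06 and S03 were highest within their cell type for 38.8%, 32.9% and 38.0% of genes. Leaving out each library in turn, 27 of the 34 regulators kept their call and direction in all 6 fits.

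Shifts between paralogs were compared as the ratio of their counts within each library, which does not depend on normalization across libraries. The ratio was computed for 10 pairs, and 3 libraries against 3 cannot give a two-sided exact permutation p below 0.1. Ptbp2 to Ptbp1 was 0.0851, 0.0809 and 0.164 in mESCs and 0.490, 0.272 and 0.353 in CPCCs, so the ratio was 3.47-fold higher in CPCCs. Celf2 to Celf1 was 0.0496, 0.0441 and 0.0697 in mESCs and 0.705, 0.957 and 0.715 in CPCCs, which was 14.7-fold higher. Khdrbs3 to Khdrbs1 was 0.0573, 0.0502 and 0.103 in mESCs and 0.238, 0.127 and 0.139 in CPCCs, or 2.42-fold higher. In these 3 pairs no CPCC library overlapped an mESC library, and Ptbp1, Celf1 and Khdrbs1 kept more counts than their partner in every library.

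In 3 other pairs the ratio was lower in CPCCs without overlap. Rbpms2 to Rbpms was 2.26, 2.40 and 1.78 in mESCs and 0.791, 0.936 and 0.827 in CPCCs, so the member with more counts changed from Rbpms2 to Rbpms. Per kilobase of exon, the mean level of Rbpms2 in CPCCs was 46.8 CPM and that of Rbpms 40.7 CPM. Mbnl3 to Mbnl2 was 0.196, 0.113 and 0.166 in mESCs and 0.0346, 0.0226 and 0.0824 in CPCCs. Hnrnpa1 to Hnrnpa2b1 was 0.984, 0.953 and 1.46 in mESCs and 0.650, 0.573 and 0.762 in CPCCs. Each of these 6 pairs had an exact permutation p = 0.1, the smallest possible, and 0.167 after Benjamini-Hochberg adjustment over the 10 pairs, so none passed. The ratios overlapped for Mbnl1 to Mbnl2 (exact permutation p = 0.2), Hnrnpll to Hnrnpl (exact p = 0.2), Srsf12 to Srsf1 (exact p = 0.4) and Ptbp3 to Ptbp1 (exact p = 1.0).

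**Figure D4:**
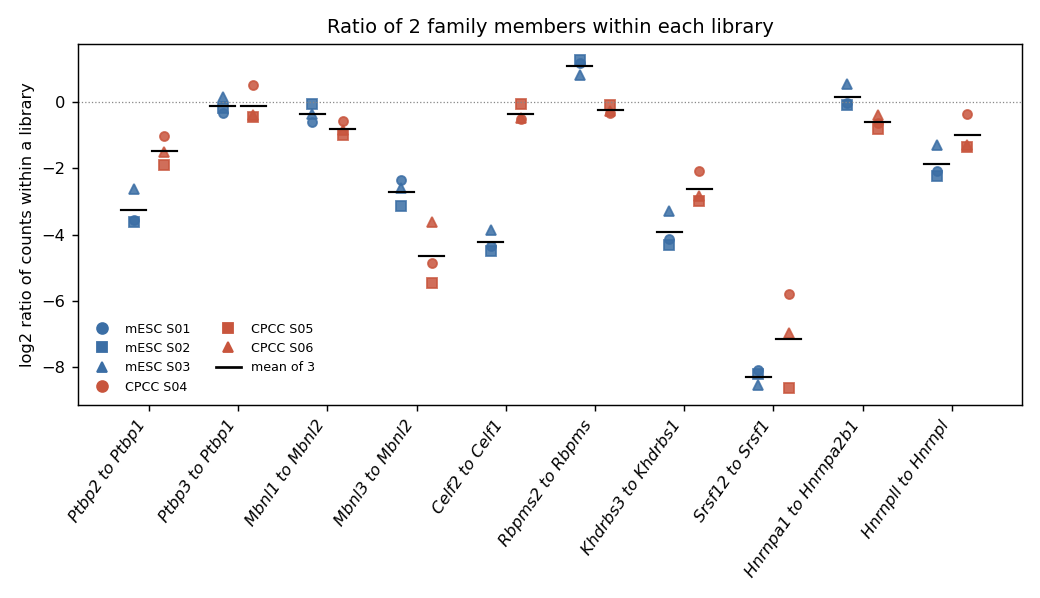
Each symbol is the log2 ratio of the counts of 2 family members in 1 library, with mESC libraries in blue, CPCC libraries in orange and a black line at the mean of 3. Symbols of the cell types do not overlap for 6 of the 10 pairs, and Rbpms2 to Rbpms crosses from above 0 in mESCs to below 0 in CPCCs.

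Transcripts annotated as targets of nonsense-mediated decay were counted in GENCODE vM21. Of the 55 protein-coding members, 30 (54.5%) have such a transcript, against 28.7% of the 11904 tested protein-coding genes. Among the families they are carried by all 3 Ptbp genes, Qk, 9 of 11 Srsf, 2 of 3 Khdrbs, 3 of 5 Celf and 10 of 20 Hnrnp genes, by Rbpms and Rbm20, and by none of the 3 Mbnl, 3 Rbfox or 2 Esrp genes. Among the 29 tested regulators with such a transcript, 14 fell and 5 rose, and among the 22 without, 8 fell and 7 rose. The counts are per gene, so productive and decay transcripts of an Srsf gene cannot be told apart in these values.

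The wider splicing machinery was taken from gene lists. Of 49 core spliceosome genes, all tested, 37 fell and none rose, with a median log2 fold change of -0.95, larger in size than that of the Srsf genes (-0.67) and the Hnrnp genes (-0.56). The largest falls were those of Cdc5l, a subunit of the Prp19 complex (log2 fold change -2.52, adjusted p = 8.7e-06), and Snrpf, an Sm ring protein (log2 fold change -1.77, adjusted p = 0.000697). Among 17 tested SR-related proteins, 11 fell and 2 rose, with a median of -0.61. Srrm1 (-1.28) and Rnps1 (-1.20), which sit on exons with the exon junction complex, fell the most, and Nktr (1.07) and Son (0.49), a speckle scaffold, rose. Of the 8 tested SR protein kinases, Srpk1 (-0.78) and Clk2 (-0.73) fell, Srpk2 rose (0.59) and 5 did not pass.

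Of 7 tested hnRNP proteins under other symbols, 3 fell and 1 rose. Pcbp1, which binds cytosine-rich RNA, fell by 1.33 on the log2 scale. Rbmx, which encodes hnRNP G, rose with a log2 fold change of 2.54 (adjusted p = 8.36e-05), from 9.996 ± 2.73 CPM to 58.2 ± 13.3 CPM (SD, n = 3 each). Of 26 other RNA-binding splicing regulators tested, 5 rose and 10 fell, with a median of -0.05. Nova2, a neuronal regulator, rose by a log2 fold change of 3.08 and Elavl3, a neuronal Hu protein, by 1.61, while Elavl2 fell by 1.53 and Rbm47 by 1.43 on the log2 scale.

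**Figure D5:**
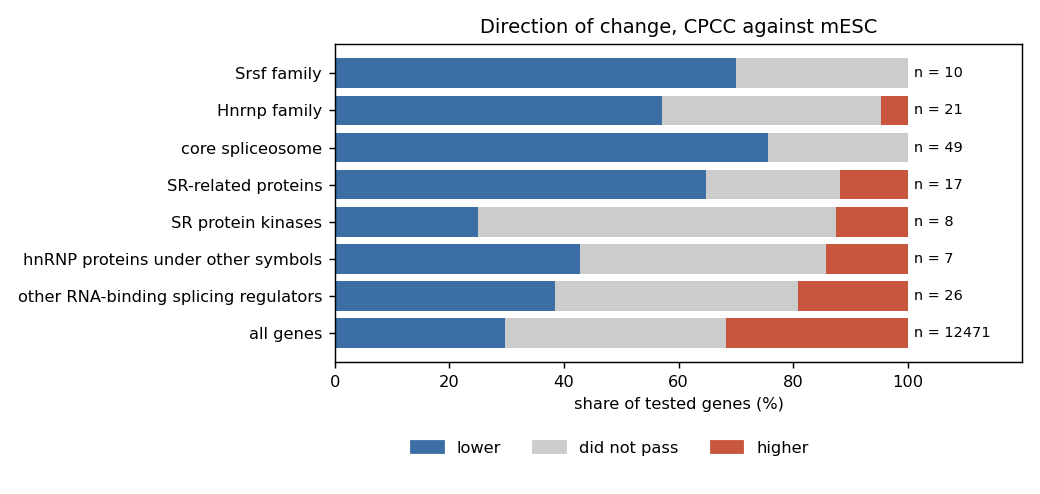
Bars give the share of tested genes in percent that passed edgeR's test as lower (blue) or higher (orange) in CPCCs or did not pass (grey), with the number tested at the right. The core spliceosome, Srsf and Hnrnp bars are blue over most of their length, while the bar of all 12471 genes holds 29.7% lower and 31.7% higher.

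Counting limits touch some of these genes. On the same strand, the tables list a gene that overlaps Celf2 and another that overlaps Hnrnpa1. On the other strand, they list genes that overlap Esrp2, Hnrnpab, Hnrnph3, Hnrnpk, Hnrnpu, Khdrbs2, Ptbp1, Rbfox2 and Srsf4, and whether counting used the strand is not given in the sources used here. Among the tested regulators, 19 had at least 1 value more than 0.05 from a whole number (an estimate of the authors' counting). Of these 19, 12 fell and 1 rose. Among the 32 with every value within 0.05 of a whole number, 10 fell and 11 rose.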

How the data were processed

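Bulk RNA-seq of 3 mESC and 3 CPCC libraries was used. For each cell type the authors deposited 1 table of estimated counts per gene without normalization. The submitters' processing notes name STAR 2.7 and the build mm10; the counter and the use of strand are not given in the sources used here. The tables list 13761 and 15519 genes, each with at least 10 counts over its 3 libraries. Of a library's values, 17.8% to 21.5% are not whole numbers. Each table was assigned to a cell type by its name, and its columns carry no replicate numbers.

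Estimated counts were rounded. The 13001 genes in both tables were filtered with edgeR's filterByExpr, and 12471 were tested with edgeR 4.0.16 in R 4.3.3 (quasi-likelihood test, TMM, library sizes over the genes in both tables, Benjamini-Hochberg adjustment, threshold 0.05). DESeq2, the tool named by the study's methods, was run here in version 1.42.0 as an alternative, together with other normalizations, filters, a 2-fold threshold, missing genes set to 0 or 3 counts, and each library left out. The fits were tested on simulated data. Floors are 3 counts per library, or 0.439 to 0.463 CPM in mESCs after TMM normalization. Levels per kilobase use the exon union of GENCODE vM21 on GRCm38, and promoters are from RefSeq. Ratios of paralogs were tested with a two-sided exact permutation test over libraries. Figures were drawn with matplotlib 3.10.9.

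The genes and gene lists were chosen with earlier results of these data known. Every gene of the rule could be named, with full statistics for the largest rise, the largest fall and the highest level of a family, and up to 2 rises and 2 falls of each other list. The value of 1 gene named by this rule is not reported here. Allele-specific, single-cell and chromatin data were not analysed here.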

Additional observations from a re-analysis of the deposited data

How the results depend on the processing

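Of the 34 regulators that passed, 27 kept their call and direction under every alternative other than the 2-fold threshold, 7 lost the call in at least 1 fit without a library, and none changed direction. With a change of at least 2-fold demanded, 19 passed, 10 higher and 9 lower. The number that passed was 33 to 37 under the other normalizations, filters and treatments of missing genes (35 with DESeq2, and 33 under the 10-count minimum, where Rbm24 was not tested) and 29 to 39 without 1 library. The median log2 fold change ranged from -0.50 to -0.25 without 1 library, and was -0.25 without S03. Setting missing genes to 0 counts moved the median of all genes from 0.031 to 0.17, and the median of the regulators was then -0.37. Of the 17 that did not pass, 5 passed in some setting, all as lower and all without S04. Of these 17, 6 changed sign, none past the threshold in either direction. With at least 10 counts in every sample, Hnrnpa1l2-ps2 was at 0.040, Khdrbs1 at 0.0100 and Srsf10 at 0.026, and with missing genes at 3 counts Rbm20 was at -0.015. Without 1 library, log2 fold changes ranged from -0.98 to 0.86 for Esrp2, -0.32 to 0.30 for Hnrnpa1l2-ps2, -0.23 to 0.19 for Hnrnpll, -0.16 to 0.056 for Khdrbs1, -0.31 to 0.34 for Rbm20 and -0.21 to 0.25 for Srsf10. The log2 ratio of Ptbp3 to Ptbp1 differed by -0.31 to 0.17. Left out in turn as a choice made after seeing the data, the CPCC libraries gave bounds of 10.4-fold to 26.5-fold for Esrp1, 9.38-fold to 17.5-fold for Rbfox1 and 1.79-fold for Celf6 (no bound without S06). Against 9 counts over the 3 libraries, the bounds were 18.3-fold, 13.6-fold and 1.10-fold. The cause of these changes was not tested. No paired analysis was possible because the columns of the tables carry no replicate numbers. Depth limits the genes near 1 CPM, such as Rbm24, Rbfox3, Srsf12 and Khdrbs2.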
